A study of Mus musculus with 2 samples.

Results

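The 9 genes described here encode proteins of synaptic vesicle release in neurons (Snap25, Stx1a, Vamp2, Syt1, Cplx2, Syn2 and Rims3), a vesicle transporter (Slc17a6) and a synaptic scaffold (Dlg2). They were chosen by name, with earlier results of these data known, and each symbol was found once among the 31053 genes of the deposited matrix. Shares of all genes set beside member counts are therefore a description only. The series profiled single cells of the olfactory epithelium of 1 male C57BL/6 mouse, sampled at postnatal day 28 after unilateral naris occlusion, the closure of 1 nostril, at postnatal day 14. The closed (L) and the open (R) side gave 1 library each, and both sides came from the same operated animal, so there is no unoperated control and no replicate. Frozen dissociated cells had passed dead cell removal before capture on the Chromium 3′ v3 kit, which reads the 3′ ends of transcripts. The sources used here do not tie either barcode suffix to a side. The suffixes 1 and 2 name the libraries here, ratios between them are library 2 over library 1, and none can be read as closed against open. No difference was tested. Intervals are exact 95% intervals that cover counting error only.

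Vesicle fusion rests on a complex of SNARE proteins, in which the vesicle protein VAMP2 pairs with syntaxin 1A and SNAP-25 on the plasma membrane. Synaptotagmin 1 senses the calcium that triggers fusion, complexins clamp and assist the SNARE complex, synapsins hold vesicles in the reserve pool, and RIM proteins organise the active zone. Olfactory sensory neurons (OSNs) arise throughout life from globose basal cells (GBCs) by way of intermediate neuronal precursors (INPs), and send glutamatergic axons to the olfactory bulb. S100a5, a calcium-binding protein gene, is known to be induced in OSNs by odour-driven activity. On GRCm38, the SNARE genes are Snap25 (ENSMUSG00000027273) on chromosome 2 at 136713453 to 136782428, plus strand, Stx1a (ENSMUSG00000007207) on chromosome 5 at 135023482 to 135051100, plus strand, and Vamp2 (ENSMUSG00000020894) on chromosome 11 at 69088490 to 69092384, plus strand. The calcium sensor, complexin and synapsin genes are Syt1 (ENSMUSG00000035864) on chromosome 10 at 108497650 to 109010982, minus strand, Cplx2 (ENSMUSG00000025867) on chromosome 13 at 54371349 to 54383917, plus strand, and Syn2 (ENSMUSG00000009394) on chromosome 6 at 115134902 to 115282006, plus strand. The transporter, active zone and scaffold genes are Slc17a6 (ENSMUSG00000030500) on chromosome 7 at 51622006 to 51671119, plus strand, Rims3 (ENSMUSG00000032890) on chromosome 4 at 120854816 to 120896579, plus strand, and Dlg2 (ENSMUSG00000052572) on chromosome 7 at 90476672 to 92449247, plus strand.

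Promoter sequences are printed for 4 of the members whose levels separated stages or libraries below. Other matched starts, among them those of Cplx2 and Dlg2, are not printed. RefSeq starts on GRCm38.p6 were matched for 7 members, with 12 starts in all, and Snap25 and Vamp2 were not matched. Each line gives the 250 bases before a start, 5′ to 3′ on the gene's strand, here always the plus strand. Capitals mark matches on either strand to 5 motifs: the EBF core CCCNNGGG, the cAMP response element TGACGTCA and its core TGACG, the homeodomain core TAATTA and the E-box CANNTG.
Stx1a, chr5:135023232-135023481: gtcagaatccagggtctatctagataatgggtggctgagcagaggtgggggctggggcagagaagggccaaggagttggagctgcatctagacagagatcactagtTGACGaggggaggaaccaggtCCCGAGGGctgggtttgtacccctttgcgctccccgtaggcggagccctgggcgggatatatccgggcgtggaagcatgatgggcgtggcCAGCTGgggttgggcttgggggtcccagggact
Slc17a6, second start, chr7:51624387-51624636: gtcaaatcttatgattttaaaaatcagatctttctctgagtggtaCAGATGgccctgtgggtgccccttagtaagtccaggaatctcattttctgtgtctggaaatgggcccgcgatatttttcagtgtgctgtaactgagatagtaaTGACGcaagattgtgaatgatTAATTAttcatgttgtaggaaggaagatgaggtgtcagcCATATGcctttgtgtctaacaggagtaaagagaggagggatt
Rims3, chr4:120854549-120854798: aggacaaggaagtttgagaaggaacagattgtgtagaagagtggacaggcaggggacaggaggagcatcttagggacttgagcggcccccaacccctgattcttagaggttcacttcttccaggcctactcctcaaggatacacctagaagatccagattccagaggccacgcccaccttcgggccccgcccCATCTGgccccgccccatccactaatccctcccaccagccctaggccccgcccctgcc
Syn2, first start, chr6:115134652-115134901: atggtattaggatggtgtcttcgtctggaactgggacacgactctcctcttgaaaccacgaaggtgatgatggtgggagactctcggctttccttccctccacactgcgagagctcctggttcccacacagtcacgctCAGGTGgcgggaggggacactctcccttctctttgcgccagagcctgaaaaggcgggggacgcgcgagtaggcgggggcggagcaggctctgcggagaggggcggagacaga
The upstream bases of Stx1a, Rims3 and Syn2 overlapped no annotated exon or gene body. The second start of Slc17a6 lies inside the annotated gene. Stx1a held an EBF core beginning 123 bases before its start and the TGACG core 144 bases before it. In Slc17a6, TGACG began 102 and TAATTA 81 bases before the second start. The first start of Slc17a6, which lies outside the annotated gene and is not printed, had neither motif and held an E-box 144 bases before it. Over windows of 300 bases that run to 50 bases past the start, 2 of 12 member starts held the EBF core, the other one in Cplx2, against 13.7% of 32851 RefSeq promoters. TGACG was in 2 of 12 starts against 20.8% of promoters, TAATTA in 1 against 5.29%, the E-box in 10 against 72.3%, and TGACGTCA in none against 1.79%. TGACG is part of TGACGTCA, so these 2 motifs overlap by construction. These are matches of letters and were not tested as sites.

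Library 1 held 4501 barcodes and 27212821 UMIs (unique molecular identifiers, counted transcripts), and library 2 held 7990 barcodes and 49221001 UMIs. Filters kept 3032 and 5266 cells, of median depth 5528 and 5139.5 UMIs, and 6 barcode sequences occurred in kept cells of both libraries. Cells were clustered without the 9 members, the 101 pathway genes listed below and S100a5, so none of these genes could set a class border. Marker genes named 426 and 448 cells as mature OSN-like, 301 and 664 as immature OSN-like, 52 and 147 as INP-like and 150 and 352 as GBC-like. All 14 listed mature OSN markers were detected in the mature cells, at a summed 35155 and 31321 CPM (counts scaled to 1000000 UMIs of the group), against 4828 and 2891 CPM in the immature cells. Immature cells comprised clusters 2 (146 and 373 cells), 11 (57 and 144) and 7 (98 and 147). Cluster 7 also carried all 9 sustentacular markers, at a summed 24345 and 27683 CPM, against 220 and 744 CPM in cluster 2, while its immature OSN markers summed to 1957 and 2498 CPM and its mature ones to 6566 and 3115 CPM. Its name rests on Gap43, Dcx, Dpysl5 and Gng8 among its 50 leading genes, which also held the sustentacular marker Sec14l3, and its sustentacular sums were above those of the class it was named for. Its median depth was 12782 UMIs. Some results for immature cells are therefore given without it too, and those not marked so include it. Cluster 7 held 1584683 of 2722022 UMIs of the immature class in library 1 and 2299819 of 4791840 in library 2. Cluster 3 (152 and 314 cells) stayed unnamed because it held markers of both OSN stages: its immature markers summed to 5080 and 5102 CPM and its mature markers to 20595 and 19058 CPM.

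The members were mostly neuronal genes. In mature OSN-like cells Snap25 was at 376 CPM (351 to 403) in library 1 and 418 CPM (391 to 447) in library 2, and in sustentacular-like cells, the epithelial supporting cells, at 4.92 and 3.40 CPM. All 9 members were higher in mature than in sustentacular-like cells in both libraries, 8 of them by at least 2-fold, where 25.6% of 9762 genes measured were 2-fold higher. The exception was Dlg2, at 32.5 against 19.5 CPM in library 1 and 128 against 16.6 CPM in library 2. With each cell thinned to 2000 UMIs, leaving out 4 and 10 shallower mature and 20 and 45 shallower sustentacular cells, a Snap25 UMI was seen in 53.1% (48.2 to 57.9) and 56.2% (51.4 to 60.9) of mature cells and in 0.819% and 0.626% of sustentacular-like cells. Without thinning these shares were 84.5% and 84.4% against 3.32% and 2.69%, at median depths of 5092 and 4745 UMIs in mature and 6333 and 6073 UMIs in sustentacular-like cells. Vamp2 was also read outside neurons: 16.9% (14.3 to 19.8) and 17.3% (14.98 to 19.9) of thinned sustentacular-like cells had a Vamp2 UMI, and their level was 90.9 and 92.7 CPM. Of the 11 classes outside the neuronal lineage, ionocyte/microvillous-like cells were highest for Syn2, at 87.5 and 42.7 CPM, for Vamp2, at 199 and 166 CPM, for Dlg2, at 30.6 and 20.9 CPM, and for Syt1, at 21.9 and 30.2 CPM. For Syn2 the library 1 level of these cells was above the 35.7 CPM of mature neurons, while in library 2 mature neurons were at 74.4 CPM.

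**Figure D1:**
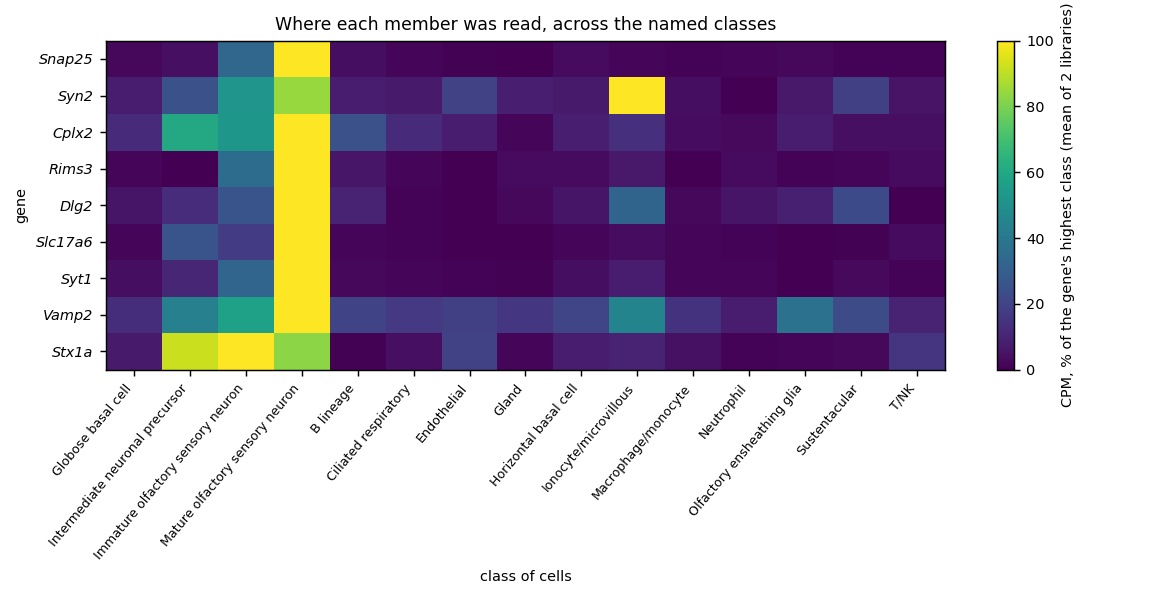
Level of each gene (rows) in each of 15 named classes (columns), as percent of that gene's highest class, from the mean CPM of both libraries; colours compare classes within a row only. Rows peak in mature olfactory sensory neurons except Stx1a, which peaks in immature ones, and Syn2, which peaks in the ionocyte/microvillous class.

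The members did not appear together along the lineage. Cells thinned to 2000 UMIs held on average 0.236 of the 9 members in GBC-like cells, against 0.268 in sustentacular-like cells, then 0.858 in INP-like cells, 1.23 in cluster 11, 1.72 in cluster 2, 2.68 in cluster 3 and 2.89 in mature cells. Between INP- and GBC-like cells, Cplx2, Slc17a6, Syt1, Vamp2 and Stx1a were at least 2-fold higher in both libraries, 5 of 9 against 10.4% of 8983 genes. Between mature and immature OSN-like cells, 3 of 9 members were at least 2-fold higher in both libraries, Snap25, Slc17a6 and Syt1, against 10.7% of 9566 genes. None was 2-fold lower in both, against 15.4% of genes. The median log2 ratio of the members was 1.39, against -0.06 for all genes, as the mean over libraries and with cluster 7 included. Without cluster 7 the count was 1, Slc17a6, against 10.5% of genes. Without cluster 7 and 3 cells of library 1 described below, the same 3 members passed again, against 11.2% of genes. Those 3 cells were picked by their Snap25 UMIs, so the return of Snap25 follows in part from that choice. Step by step, Rims3 was at least 2-fold higher in cluster 11 than in INP-like cells (7.37% of genes), Snap25, Rims3 and Syt1 in cluster 2 without the 3 cells than in cluster 11 (8.33%), and Snap25 and Slc17a6 in cluster 3 than in that cluster 2 (6.69%). Between cluster 3 and mature cells no member was 2-fold higher or lower in both libraries, where 0.867% and 2.42% of genes were.

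**Figure D2:**
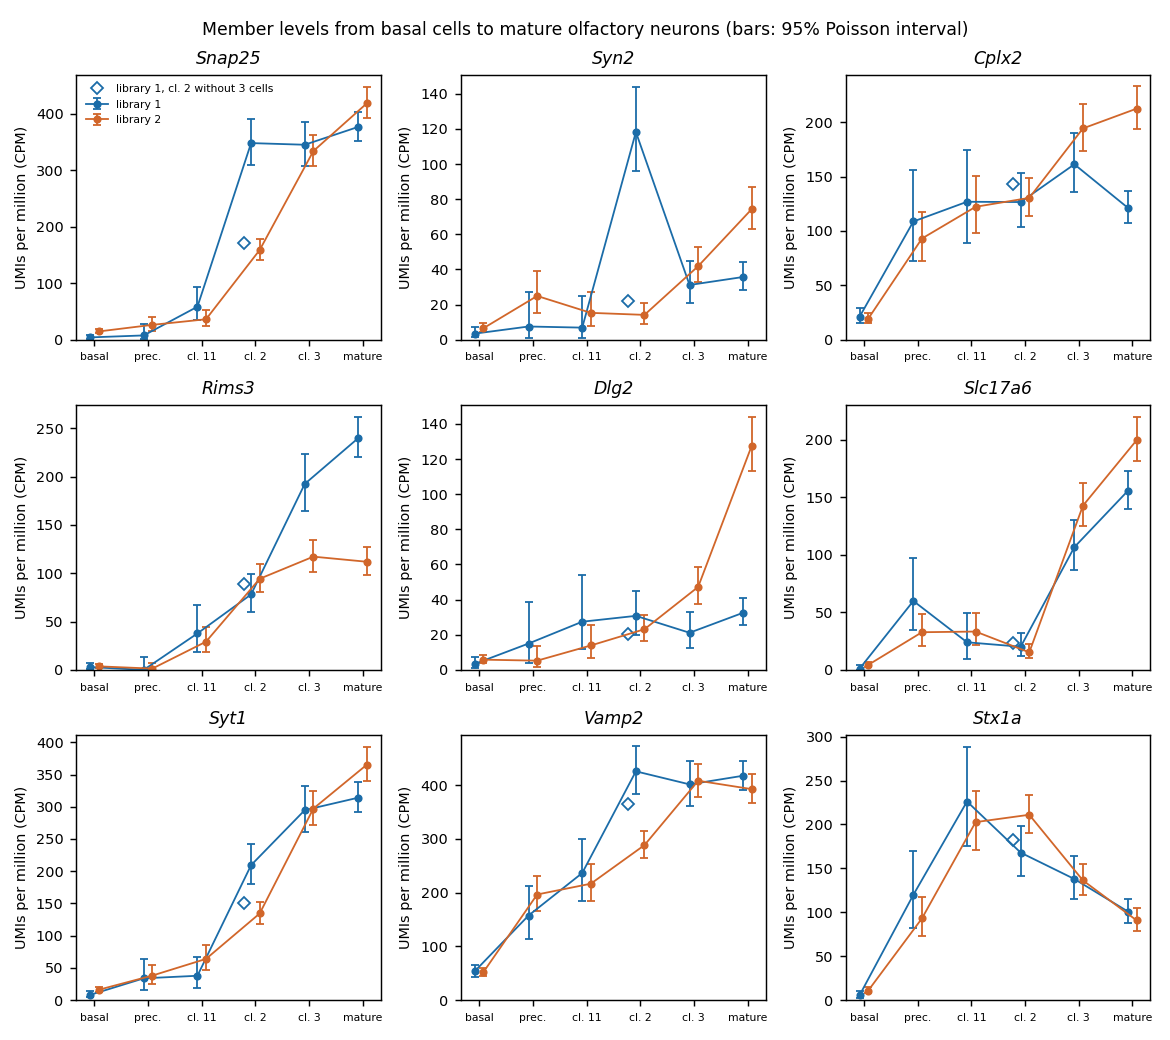
CPM of each gene (vertical axis, from 0) in 6 groups of cells from globose basal cells (basal) and intermediate neuronal precursors (prec.) through clusters 11, 2 and 3 to mature cells, for both libraries, with 95% Poisson intervals; open diamonds show cluster 2 of library 1 without 3 cells. Stx1a peaks in clusters 11 and 2, Snap25 and Syt1 are high from cluster 2 on, and Slc17a6 is low in cluster 2 and high in cluster 3; the open diamonds lie near library 2 for Snap25, Syn2 and Syt1.

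Among the SNARE genes, Stx1a, which encodes the plasma membrane syntaxin, had its highest level before the mature stage. It was at 5.74 and 10.9 CPM in GBC-like cells of libraries 1 and 2, at 120 (82.0 to 169) and 93.0 (72.6 to 117) in INP-like cells, and at 226 (175 to 288) and 203 (171 to 238) in cluster 11. It was then at 168 (141 to 198) and 211 (190 to 234) in cluster 2, at 138 and 136 in cluster 3 and at 101 (88.0 to 115) and 90.8 (78.45 to 104.5) in mature cells. Both libraries thus had Stx1a higher in cluster 11 than in mature cells, with intervals that did not overlap. Its mature over immature ratio was 0.98 and 0.71, and 0.52 and 0.44 without cluster 7 and the 3 cells.

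Snap25, the other plasma membrane SNARE, had few UMIs before the immature stage: 7 and 60 in GBC-like cells, 4.02 and 14.5 CPM, and 2 and 20 in INP-like cells, 7.49 (0.908 to 27.1) and 26.2 CPM (16.0 to 40.5). Cluster 11 was at 58.3 (33.9 to 93.3) and 36.1 CPM (23.6 to 52.9). In cluster 2 library 1 stood at 348 CPM (309 to 390) and library 2 at 159 CPM (141 to 178), and in cluster 3 both were alike at 345 and 334 CPM. The library gap in cluster 2 came down to 172 (143 to 204) against 159 CPM when 3 cells of library 1 were left out, and the intervals then overlapped. Those were the 3 immature cells of library 1 with the most Snap25 UMIs, and no cell of library 2 was left out. Leaving them out had to lower Snap25 in library 1, so the smaller gap follows in part from that choice. On that basis Snap25 was 2.19 and 2.63 times higher in mature cells than in cluster 2, where 9.51% of 9016 genes were 2-fold higher, and 2.00 and 2.10 times higher in cluster 3 than in cluster 2. The mature over immature call of Snap25 was lost in 6 of 18 alternatives, and with stages set by Omp and Gap43 UMIs its log2 ratio in library 1 was -0.0868.

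Vamp2, the vesicle SNARE, was read from GBC-like cells on. Its level was 53.9 (43.6 to 66.0) and 52.2 CPM (45.5 to 59.7) in GBC-like cells, below the 90.9 and 92.7 CPM of sustentacular-like cells, and 157 and 196 CPM in INP-like cells. It went on to 237 and 217 CPM in cluster 11, to 426 and 288 in cluster 2, to 401 and 408 in cluster 3 and to 418 (391 to 445) and 393 (366 to 420) in mature cells. Its mature over immature ratio was 1.65 and 1.86, under 2-fold in both libraries.

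Syt1, the calcium sensor, followed Snap25. It was at 33.7 and 38.0 CPM in INP-like cells, 37.7 and 63.9 in cluster 11, 209 (180 to 243) and 134 (118 to 152) in cluster 2, 295 and 297 in cluster 3 and 314 (291 to 338) and 365 (340 to 392) in mature cells. Without the 3 cells cluster 2 of library 1 was at 150 CPM (123 to 181). Cplx2, a complexin, was present early: 109 and 93.0 CPM in INP-like cells, 127 and 122 in cluster 11, 127 and 130 in cluster 2, and 161 and 194 in cluster 3. In mature cells it parted by library, at 121 (107 to 136) and 212 CPM (193 to 233). In library 1 the mature level lay within the intervals of clusters 11 and 2.

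Slc17a6 encodes VGLUT2, the transporter that loads glutamate into the vesicles of OSNs. It showed a dip: 59.9 (34.3 to 97.4) and 32.7 CPM (21.2 to 48.3) in INP-like cells, 24.0 and 33.3 in cluster 11, 20.1 (11.7 to 32.2) and 15.2 (10.0 to 22.2) in cluster 2, then 107 (86.5 to 130) and 143 (125 to 162) in cluster 3 and 156 (140 to 173) and 200 (181 to 220) in mature cells. The intervals of INP-like cells and cluster 2 did not overlap in library 1 and overlapped slightly in library 2. In library 1 the INP-like level rested on 16 UMIs in 52 cells, and the 3 richest cells held 43.75% of them. Slc17a6 had the largest mature over immature ratios of the 9 members in both libraries, 3.97 and 7.90, and was the member past 2-fold between clusters 3 and 2 in both libraries as they stand, at 5.11 and 8.86, where 6.37% of 9036 genes were higher. Other transporters were near absent from these neurons: Slc17a7, which encodes VGLUT1, had no UMI in mature cells of either library and Slc18a2, a monoamine transporter, was at 0.452 and 0 CPM.

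Syn2, a synapsin, was low at every stage of the lineage. In library 2 it was at 14.1 CPM (9.13 to 20.8) in cluster 2, 41.8 (32.6 to 52.9) in cluster 3 and 74.4 (63.3 to 86.9) in mature cells. In library 1 it was at 118 (96.2 to 144), 31.1 (20.7 to 45.0) and 35.7 (28.3 to 44.5), an order that 3 cells set, since cluster 2 without them was at 21.8 CPM (12.5 to 35.4). The mature over immature ratio accordingly went opposite ways, 0.72 in library 1 and 3.94 in library 2, and without cluster 7 and the 3 cells it was 1.98 and 4.88. The 3 cells held most Syn2 UMIs of cluster 2 in library 1, so leaving them out had to raise the library 1 ratio.

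Rims3, a small member of the RIM family of active zone proteins, was near absent before the OSN stages. INP-like cells held 0 UMIs in library 1, which allows up to 13.8 CPM at the upper end of the interval, and 1 UMI in library 2. Cluster 11 was at 37.7 (18.8 to 67.5) and 29.2 (18.1 to 44.6) CPM and cluster 2 at 78.1 (60.4 to 99.3) and 94.3 (80.5 to 110). The libraries then parted: cluster 3 was at 192 (165 to 223) and 117 (101 to 135), and mature cells at 240 (220 to 261) and 112 (98.1 to 127). Dlg2, which encodes the scaffold PSD-93, stayed at or under 30.8 CPM from GBC-like cells to cluster 2 in both libraries, a range that includes its level in sustentacular-like cells. In library 1 mature cells were at 32.5 CPM (25.5 to 41.0), an interval that overlapped those of INP-like cells and clusters 11, 2 and 3 and lay above that of GBC-like cells, whereas in library 2 it was at 47.2 (37.4 to 58.8) in cluster 3 and 128 (113 to 144) in mature cells. The Dlg2 gene overlaps 22 annotated genes on its own strand and 8 on the other, so its UMIs are less certain than those of Rims3, Cplx2, Vamp2 and Stx1a, which overlap none.

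How far these levels rested on few cells was read from the 3 richest cells of each group. In mature cells the 3 richest held between 2.38% and 12.5% of a member's UMIs in either library, with Dlg2 highest at 12.5% and 11.7%. In cluster 2 of library 1 they held 84.0% of Syn2, 57.1% of Snap25, 37.9% of Syt1 and 25.6% of Vamp2 UMIs, against 24.0%, 6.76%, 7.14% and 4.31% in cluster 2 of library 2. For Snap25 the same 3 cells accounted for this, with 74, 68 and 26 UMIs, and they carried 31, 36 and 17 Syn2 UMIs, while no other kept cell of library 1 or 2 had as many as 10 Syn2 UMIs. Vamp2 stood at 42, 43 and 7 UMIs in them and Syt1 at 7, 28 and 32. They were deep cells of 42279, 46750 and 22440 UMIs that had no Omp, Slc17a6 or S100a5 UMI and 7, 5 and 4 odorant receptor UMIs. They had 59, 59 and 30 UMIs of Gap43, the growth-associated protein gene of immature neurons. Of the other immature OSN markers, Stmn2 had 129, 156 and 79 UMIs, but Gng8 had 0, 2 and 0, of 2414 in the immature class of library 1. The mature OSN markers Gng13 and Cnga2 had no UMI in them, where that class held 5977 and 321.

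The 3 cells also carried transcripts of some genes listed as markers of other neurons, but few or none of others. Prph, which encodes peripherin, had 59, 179 and 52 UMIs, and the granin genes Chgb and Scg2 had 16, 29 and 8 and 24, 36 and 14. Prph was also read in other immature cells, but lower: immature cells of library 2 were at 172 CPM, and the 3 cells at 1395, 3829 and 2317 CPM. The immature class of library 1 held 669 Prph UMIs in all. Tac1, a tachykinin gene, had 0, 23 and 8. Chga had 1, 4 and 2, Chat 1, 4 and 0, Calca 0, 1 and 0 and Gad2 0, 0 and 5. Gad1, Slc32a1, Th, Tbr1, Trpv1, Scn10a, Gnrh1, Avp and Trpc2 had none. Slc18a3, the vesicular acetylcholine transporter gene, is outside that list and had 8, 19 and 1. Those cells held all 28 Slc18a3 UMIs of the immature class in library 1. Of the 17 listed markers of other neurons and neuroendocrine cells, cluster 2 had UMIs of 10 in library 1 and 9 in library 2, with summed levels of 1036 and 496 CPM, and Gad1, Slc32a1, Th, Trpv1, Scn10a and Trpc2 were at 0 in both. The same list summed to 936 and 846 CPM in cluster 3 and to 1640.5 and 1305 CPM in mature cells, where Chga alone was at 1593.5 and 1204 CPM. Without the 3 cells no member but Syn2 was 1.5-fold apart between libraries in cluster 2, where 16.1% of 9237 genes were. Syn2 was then at 21.8 and 14.1 CPM with overlapping intervals, and the log2 ratio interval of Vamp2, -0.56 to -0.12, stayed below 0.

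**Figure D3:**
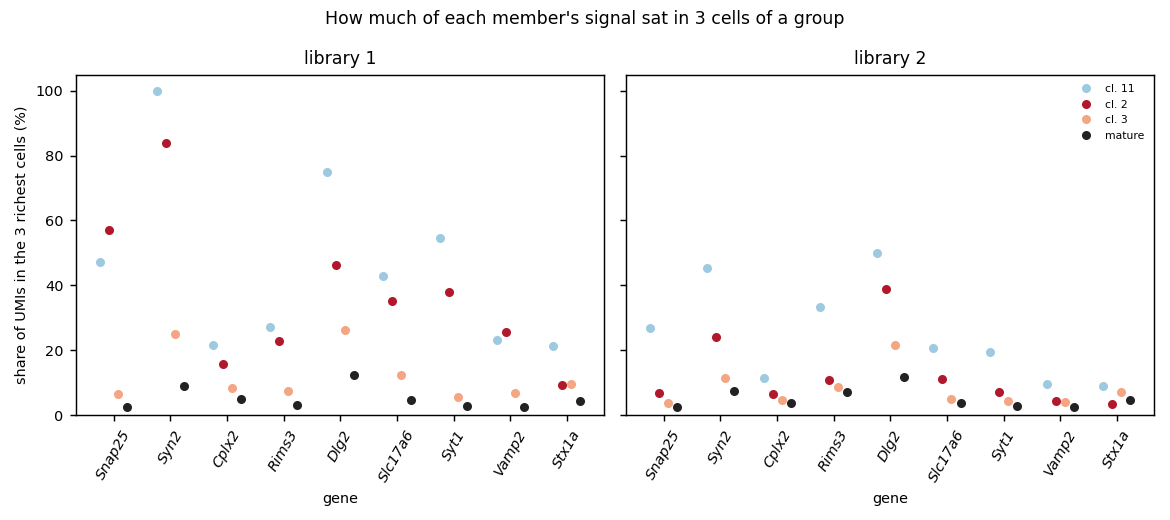
Share of each gene's UMIs (vertical axis, percent) held by the 3 cells with most of them, for clusters 11, 2 and 3 and mature cells, library 1 left and library 2 right. In cluster 2 Syn2 and Snap25 stand at 84.0% and 57.1% in library 1 and at 24.0% and 6.76% in library 2, while mature cells stay at or under 12.5%; small groups and low counts also raise this share, as in cluster 11.

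The 2 libraries were then compared in mature OSN-like cells. Dlg2, Syn2 and Cplx2 were higher in library 2 and Rims3 lower, while the SNARE genes, Syt1 and Slc17a6 differed by less than 1.5-fold. Dlg2 was at 32.5 CPM (25.5 to 41.0) and 128 CPM (113 to 144), 3.84 times higher in library 2. Syn2 was at 35.7 (28.3 to 44.5) and 74.4 (63.3 to 86.9), a ratio of 2.05, and Cplx2 at 121 (107 to 136) and 212 (193 to 233), a ratio of 1.75. Rims3 was at 240 (220 to 261) and 112 (98.1 to 127), a ratio of 0.47. The intervals of both libraries were apart for each of these 4. So 4 of 9 members were at least 1.5-fold apart, where 8.77% of 8687 genes were, 5.17% higher and 3.60% lower in library 2. The other ratios were 1.28 for Slc17a6, 1.16 for Syt1, 1.11 for Snap25, 0.94 for Vamp2 and 0.90 for Stx1a. The median log2 ratio of the members was 0.22, against -0.01 for all genes.

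With cells thinned to 2000 UMIs, Rims3 was seen in 38.4% (33.7 to 43.2) of mature cells in library 1 and 18.5% (14.97 to 22.4) in library 2, and Dlg2 in 5.92% (3.87 to 8.62) and 17.4% (13.9 to 21.2). In sustentacular-like cells these shares were 0.273% and 0.418% for Rims3, and 4.50% (3.12 to 6.26) and 2.51% (1.61 to 3.70) for Dlg2, and the Dlg2 intervals of mature and sustentacular-like cells overlapped in library 1. Unthinned shares in mature cells were 65.3% and 33.0% for Rims3 and 14.3% and 32.8% for Dlg2. In cluster 3 Rims3 and Dlg2 were past 1.5-fold the same way, with ratios of 0.61 and 2.18, where 14.5% of 9113 genes were past it either way. In cluster 2 without the 3 cells, the ratios were 1.06 and 1.13. In Nqo1-positive and Ncam2-positive mature cells taken apart, the same 4 members were past 1.5-fold in the same directions: Dlg2 by 3.47 and 4.18, Syn2 by 1.87 and 2.29, Cplx2 by 2.03 and 1.73 and Rims3 by 0.333 and 0.584. In those smaller groups 34.8% and 20.6% of genes were 1.5-fold apart. Both groups are parts of the same mature cells that gave the 4 calls, so like directions follow in part from that.

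**Figure D4:**
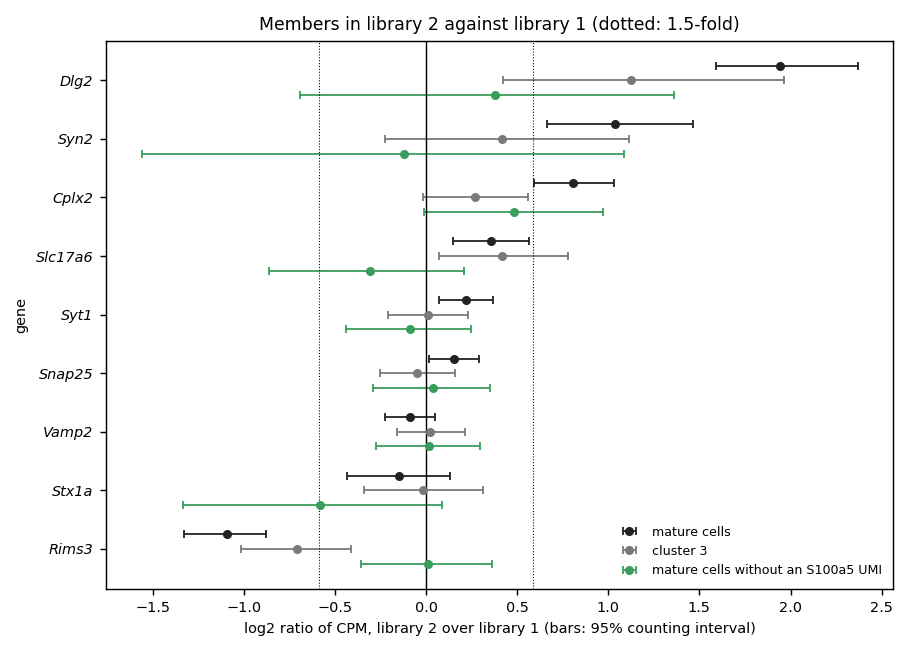
log2 ratio of CPM in library 2 over library 1 (horizontal axis, with 95% counting intervals and dotted lines at 1.5-fold) for each gene, drawn for all mature cells, for cluster 3 and for mature cells that had no S100a5 UMI. Dlg2, Syn2 and Cplx2 lie right and Rims3 left of the dotted lines in mature cells, and among cells without S100a5 every interval includes 0.

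S100a5 itself differed between the libraries: 240 of 426 mature cells in library 1 and 64 of 448 in library 2 had no S100a5 UMI. Members were therefore read by the S100a5 level of each cell, with S100a5 left out of the totals. Split by S100a5 into 3 groups of like size (tertiles) within each library, Syn2 was the 1 member past 1.5-fold in both, against 4.70% of 8332 genes: bottom and top tertiles were at 27.7 (16.9 to 42.8) and 57.7 CPM (42.1 to 77.2) in library 1 and at 31.1 (19.5 to 47.1) and 114 CPM (90.5 to 142) in library 2. Rims3 was lower in the top tertile in both, at 273 (236 to 314) and 191 CPM (162 to 224) in library 1 and at 202 (170 to 238) and 49.9 CPM (34.8 to 69.5) in library 2. Dlg2 was at 37.4 and 38.5 CPM in library 1 and at 43.8 (29.8 to 62.2) and 264 CPM (227 to 305) in library 2. Snap25 was 1.36 and 1.54 times higher in the top tertile, and the ratios of Vamp2 were 0.98 and 1.04. In cells thinned to 2000 UMIs the 1 member past 1.5-fold was Rims3, not Syn2. These tertiles are not alike across libraries: in library 1 all 142 cells of the bottom and 98 of the middle tertile had no S100a5 UMI, and the median S100a5 level of the top tertile was 2062 CPM against 29116 CPM in library 2. With 1 split for both libraries, 3 members were past 1.5-fold between top and bottom in each, against 8.32% of 8387 genes: Syn2 by 2.54 and 4.34, Dlg2 by 2.58 and 4.75 and Rims3 by 0.520 and 0.245.

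Fixed ranges of S100a5, chosen after these values had been seen, set like cells side by side. Among cells without an S100a5 UMI, Rims3 was at 271 CPM (242 to 302) in library 1 and 273 CPM (218 to 339) in library 2, Dlg2 at 30.2 (21.2 to 41.9) and 39.5 (20.4 to 69.0) and Syn2 at 25.2 (17.0 to 36.0) and 23.1 (9.27 to 47.5). No member was 1.5-fold apart there, where 26.1% of 8700 genes were, at the lower counts of 64 cells. Stx1a came nearest, at 104 (86.6 to 124) and 69.2 CPM (42.8 to 106), and fell just under the cut with 1 CPM added to both sides. Across the ranges up to 1000, 3000, 10000 and 30000 CPM of S100a5, Rims3 was at 239, 206, 156 and 153 CPM in library 1 and at 158, 140, 106 and 58.9 CPM in library 2, and beyond 30000 CPM, reached by 74 cells of library 2, at 38.1 CPM (20.3 to 65.1). Both libraries thus had less Rims3 at higher S100a5. Within the range from 10000 to 30000 CPM, whose median S100a5 was 15932 CPM in library 1 (26 cells) and 15900 CPM in library 2 (129 cells), the Rims3 intervals were apart, 97.3 to 230 against 41.2 to 81.5 CPM, while in the 3 lower ranges with S100a5 they overlapped.

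Dlg2 went the other way and mainly at the top of the scale. In library 2 it was at 46.0, 48.2, 85.6 (60.6 to 117) and 108 CPM (83.5 to 137) over those ranges and at 404 CPM (340 to 478) beyond 30000 CPM. In that last range 63.5% (51.5 to 74.4) of 74 cells had a Dlg2 UMI, and the 3 richest held 23.2% of its UMIs. Library 1 was at 23.0, 29.996, 48.1 (20.8 to 94.7) and 66.7 CPM (32.0 to 123), and each interval overlapped that of library 2 in the same range. Syn2 was at 32.2, 48.7, 54.1 and 86.7 CPM in library 1 and at 20.4, 53.0, 76.6, 99.8 and 123 CPM in library 2, again with overlapping intervals in each range. Cplx2 was higher in library 2 in every range, at 115 and 161 CPM in cells without S100a5, where the intervals overlapped, and at 80.5 (56.1 to 112) and 194 (137 to 266) in the next range, where they did not, and they overlapped in the 3 ranges above. Vamp2 stayed between 394 and 467 CPM in library 1 and between 363 and 428 CPM in library 2 over all ranges. Median depth was between 4958.5 and 5721.5 UMIs per cell in the ranges of library 1 and between 4461.5 and 5087.5 in those of library 2.

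**Figure D5:**
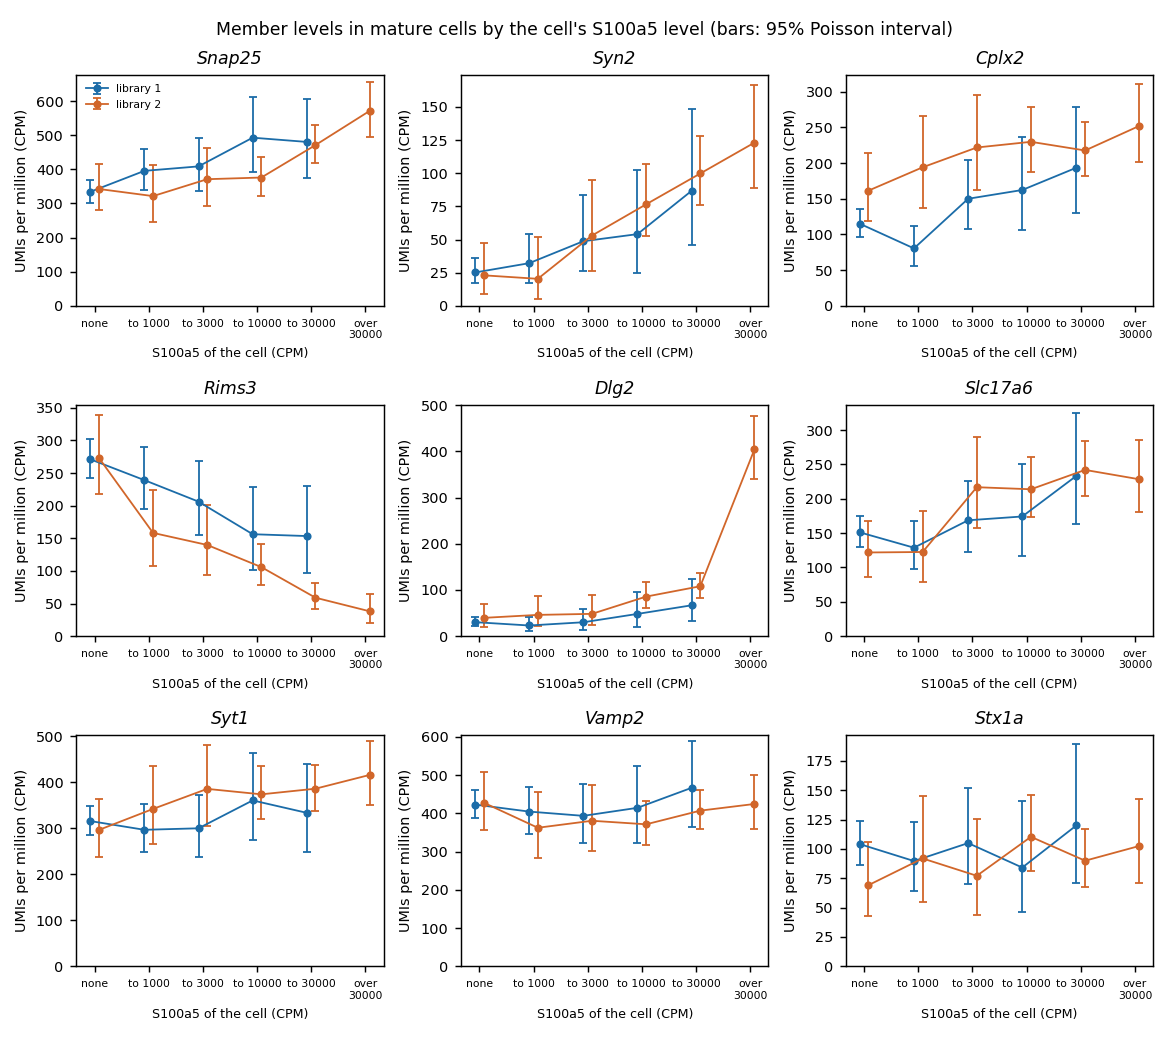
CPM of each gene (vertical axis, from 0) in mature OSN-like cells grouped by the cell's own S100a5 level (horizontal axis, fixed ranges), for both libraries, with 95% Poisson intervals; library 1 had no cell beyond 30000 CPM. Rims3 goes from about 271 and 273 CPM without S100a5 to 153 and 58.9 CPM in the range up to 30000, Dlg2 reaches 404 CPM beyond it in library 2, and Vamp2 is nearly level.

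Position in the epithelium was read through Nqo1, a gene of the dorsal zone, and Ncam2, an adhesion molecule gene of the ventral zone, in mature cells with UMIs of only 1 of them. There were 61 and 92 Nqo1 cells and 135 and 145 Ncam2 cells. Stx1a was the 1 member past 1.5-fold in both libraries, lower in Nqo1 cells by 0.65 and 0.63, where 7.40% of 8370 genes were past it either way. The interval of its log2 ratio, -1.42 to 0.08, included 0 in library 1, and was -1.35 to -0.05 in library 2. The call was lost in 7 of 15 alternatives, and in cells thinned to 2000 UMIs the log2 ratio of library 2 was 0.28. The ratios of Rims3 were 1.33 and 0.76 and those of Dlg2 0.82 and 0.68.

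The 101 other release genes fell into 8 lists. Between mature and immature OSN-like cells 67 of them were measured, of which 19 were at least 2-fold higher and 6 lower in both libraries (28.4% and 8.96%, against 10.7% and 15.4% of all genes). Without cluster 7 and the 3 cells 11 of 65 were higher and 7 lower (16.9% and 10.8%, against 11.2% and 11.8%). The counts by list and the immature levels that follow include cluster 7 and the 3 cells. Of the vesicle proteins 6 of 13 were higher, with synaptophysin (Syp) at 73.8 and 58.0 CPM in immature and 283 and 291 in mature cells and Rab3a, a vesicle GTPase, at 180 and 140 and at 460 and 449. Of the presynaptic calcium channel subunits 4 of 5 were higher, Cacnb3 by 6.71 and 6.17. Of the SNAREs and their regulators 2 of 15 were higher, Vamp1 and Napa, and 2 lower, Snap23 and Stxbp6. The other counts were 1 of 6 complexins and calcium sensors, 2 of 10 active zone genes, 3 of 9 scaffold and adhesion genes and 1 of 9 recycling genes. The active zone gene Pclo was at 167 and 182 CPM in immature and 89.5 and 98.3 CPM in mature cells. None of the 5 transporters reached 10 CPM in mature or immature cells of each library.

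These genes differed between libraries at shares near those of all genes, and between S100a5 tertiles at shares above them. Between libraries in mature cells 4 of 63 were at least 1.5-fold higher and 2 lower in library 2 (6.35% and 3.17%, against 5.17% and 3.60% of all genes). These and the other genes named only by direction were chosen after their values were seen. Higher were Syt4, Syngr1, Sv2b and Dnm1, the last a dynamin of vesicle recycling at 150 and 235 CPM, and lower were Vamp1 and Cacna1a. Between tertiles by S100a5, 5 of 63 were higher in the top tertile of both libraries and 3 lower (7.94% and 4.76%, against 2.93% and 1.78%). The higher ones included Cadps2, a vesicle priming factor, at 58.2 and 118 CPM in library 1 and 50.9 and 190 CPM in library 2, and the lower ones Rab3b, Rims1 and Cacna1b, the last at 104 and 65.4 CPM and at 112 and 55.7 CPM.

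Genes whose log level was most alike across the 15 classes and 2 libraries (30 points, 7922 genes, Pearson's r) were found for each member as a description; the points share libraries and depth. For Snap25 they were Rtp2 (0.957), a receptor transport protein gene, Flrt1 (0.937) and Fam217a (0.931), for Syt1 Trim66 (0.948), Spock1 (0.934) and Cacna1b (0.930), and for Slc17a6 Brinp2 (0.947), Stxbp5l (0.928) and Lingo2 (0.926). Rims3 was nearest to Faim2 (0.890) and to 2 transduction channel genes, Cnga4 (0.883) and Ano2 (0.861), and Dlg2 to Mmp16 (0.862). Syn2 and Vamp2 were nearest to Acbd5 (0.868) and Hmgn3 (0.904), Cplx2 to Rbm15b (0.909) and Stx1a to Atxn2l (0.876). Among the members themselves Slc17a6 and Syt1 were the most alike pair (0.902) and Rims3 and Stx1a the least alike (0.394).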

How the data were processed

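The deposited matrix holds whole-number UMI counts per gene and barcode for both sides, made by the authors with Cell Ranger 3.0.2 on mm10 per the submitters' processing notes. Whether depth was equalised when libraries were combined, which barcode suffix belongs to which side, and how reads in overlapping genes were assigned are not given in the sources used here. The design has 2 samples, closed and open side, with no replicates, so nothing was tested.

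Cells with at least 1000 UMIs, 500 genes and at most 10% mitochondrial UMIs were kept, 3032 of 4501 and 5266 of 7990, with 21444390 and 37996298 UMIs. They were clustered in scanpy 1.11.5 with leidenalg 0.10.2 (2000 variable genes, 30 components, 15 neighbours, resolution 1, 35 clusters) without members, pathway genes, S100a5, odorant receptors and mitochondrial genes. A cluster took the class with the most markers, at least 3, among its 50 leading genes by fold. It stayed unnamed on a tie or where another class had more markers among the top 10. Scrublet's caller marked 0.0844% of cells, too few to have worked, so doublets were kept and removed in an alternative. UMIs were summed by class and library and divided by the group's total (CPM). Ratios add 1 CPM to both sides. A gene was measured with at least 10 CPM in either group of each library, and called at 2-fold (stages) or 1.5-fold (other contrasts) in every library compared.

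Members are always named. Of each pathway list, values are given for at most 3 genes of highest summed CPM in the lineage, and for each member the 3 most alike genes were found. Alternatives covered cell filters, doublets, clustering, stage rules, scaling, the added CPM, the minimum CPM, thinning to 2000 UMIs, leaving out the 3 richest cells and the S100a5 split. The counting and calling steps were tested on simulated data. The members and lists were chosen with earlier results of these data known.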

Additional observations from a re-analysis of the deposited data

Results flagged for a closer look

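Syn2 went opposite ways between the libraries in the ratio of mature over immature OSN-like cells. The log2 ratio was -0.47 in library 1 and 1.98 in library 2, and the difference was not tested. Without cluster 7 and the 3 cells of library 1 that held 84.0% of Syn2 UMIs in cluster 2, the ratios were 1.98-fold and 4.88-fold, both higher in mature cells. Leaving out those 3 cells, from library 1 only, had to raise its ratio, so the like direction follows in part from that choice.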

How the results depend on the processing

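No paired analysis was possible because each side gave 1 library from 1 mouse and no result comes from a test. The count of members 2-fold higher in mature than in immature cells, 3, ran from 1 to 5 over 18 alternatives and stayed within 1.5 times in 15. It was 5 with at least 2500 UMIs per cell, 1 with stages set by Omp and Gap43 UMIs and 1 without cluster 7, the last chosen after seeing the data, as were the alternatives without the 3 cells and the top tertile against all cells without S100a5. Slc17a6 was called in all 18, Syt1 in 16 and Snap25 in 12. The count of members apart between libraries, 4, ran from 0 to 4 over 18 alternatives: it was 0 among cells without S100a5. Between S100a5 tertiles the count of 1 became 2 with members and pathway genes in the clustering, and 3 with tertiles over both libraries and with tertiles among cells with an S100a5 UMI. Thinned to 2000 UMIs the called member was Rims3 in place of Syn2. Between Nqo1 and Ncam2 cells the count of 1 became 0 in 6 of 15 alternatives (no cell filter, at least 2500 UMIs, resolution 0.6, stages by Omp and Gap43, thinned cells and 10 CPM added), and at most 5% mitochondrial UMIs the called member was Dlg2. Of the log2 ratios of single members, 931 values under alternatives stayed alike, 163 moved and 4 turned direction. Those were Snap25 between stages in library 1, at -0.0868 with stages by Omp and Gap43, Syn2 at -0.12 and Rims3 at 0.0112 between libraries in cells without S100a5, and Stx1a between zones in library 2, at 0.28 when thinned. The cause was not tested. Depth limits what can be read of Syn2, Dlg2 and Slc17a6 before the mature stage, where INP-like cells held at most 25 UMIs of any of them per library.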
